A study of Mus musculus with 10 samples.

Results

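The Hox cluster genes encode homeodomain transcription factors and lie in 4 clusters, Hoxa, Hoxb, Hoxc and Hoxd. Members were all genes with a symbol made of Hoxa, Hoxb, Hoxc or Hoxd and a number among the probe sets of the array that name exactly 1 gene. They numbered 37 of the 19938 genes measured, 10 in Hoxa and 9 in each of the other clusters. Hoxb8 is not among them, because it was read only by a probe set shared with Hoxb7. The arrays profiled dorsal root ganglions (DRGs), which hold the cell bodies of sensory neurons together with glia and connective tissue cells, at E13.5. The Lkb1 KO embryos carried a floxed Lkb1 (gene symbol Stk11) and Wnt1-cre, which deletes it in the neural crest lineage and so in DRG neurons and glia but also in the dorsal neural tube. WT littermates on a mixed genetic background were the controls. There were 5 Lkb1 KO and 5 WT samples, each a pool of the DRGs of 2 embryos read on 1 array of its own, and n is the number of pools. The sources used here give neither the number of ganglia taken per embryo nor their axial level.

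Within a Hox cluster the genes are numbered by paralog group, from group 1 at the 3' end to group 13 at the 5' end. Genes near the 3' end start to be expressed at more anterior levels of the embryo, and genes nearer the 5' end at progressively more posterior ones, so that the set of Hox genes a tissue expresses reflects its position along the body axis. In spinal sensory ganglia, groups 4 to 8 are known from cervical and brachial levels, group 9 from thoracic levels, groups 10 and 11 from lumbar levels and groups 12 and 13 from sacral and tail levels. The axial profile of a pool of DRGs was therefore read as a description of where its ganglia came from, and the comparison of Lkb1 KO with WT asked whether both were dissected at the same levels. In such pooled tissue, fewer cells of a type and less RNA per cell cannot be told apart.

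The arrays themselves were checked first. Stk11 was at 7.78 ± 0.11 in Lkb1 KO and 8.70 ± 0.22 in WT on the log2 scale (SD, n = 5 each; limma, adjusted p = 1.15e-04). Lkb1 KO replicates 2 and 5 had no Y-linked signal above the level of dim genes, with a mean of 3 Y-linked genes as low as 5.02, against 8.85 to 9.81 in WT. Only Lkb1 KO had such pools, so Y-linked signal and genotype were partly confounded. The X inactivation gene Xist was at 5.06, 11.81, 4.48, 11.79 and 5.46 in WT replicates 1 to 5. It was at 11.77, 12.36, 4.89, 11.70 and 12.37 in Lkb1 KO replicates 1 to 5. Lkb1 KO replicate 2 stood apart in the noradrenergic gene Dbh, at 7.83 against at most 4.91 elsewhere. Lkb1 KO replicate 3 stood apart in the muscle actin gene Actc1, at 10.41 against at most 7.76. Array medians differed by at most 0.069. Because the values hold no detection call, a dim line was set at the 95th percentile of the means of 1194 odorant and vomeronasal receptor genes, which a ganglion is not expected to express. It lay at 5.61 on the log2 scale, while the median over all genes was 6.73.

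In the DRG pools, Hox genes of groups 1 to 10 had means above the dim line, apart from Hoxb1 and Hoxd9. Those of groups 11 to 13 had means below it, which does not show that they were silent. Of the 37 genes, 26 had a mean over the 10 arrays above the dim line, and 11 did not. All 19 measured genes of groups 2 to 8 lay above it, with means from 6.65 for Hoxa3 to 9.46 for Hoxb3. Among the 7 genes of groups 9 and 10, only Hoxd9 lay below it, at 5.20. All 9 genes of groups 11 to 13 lay below it, with means from 4.30 for Hoxc11 to 5.19 for Hoxd11. In group 1, Hoxd1 was at 7.23 and Hoxb1 at 5.42. Hoxd1 is known from developing nociceptive neurons, and Hoxb1 from the hindbrain, where it marks a single rhombomere. The gene nearest to the dim line from above was Hoxc10 at 6.05, and from below Hoxb1. Levels of different genes come from different probe sets, so these values say which side of the line a gene was on and not which gene was more abundant.

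**Figure D1:**
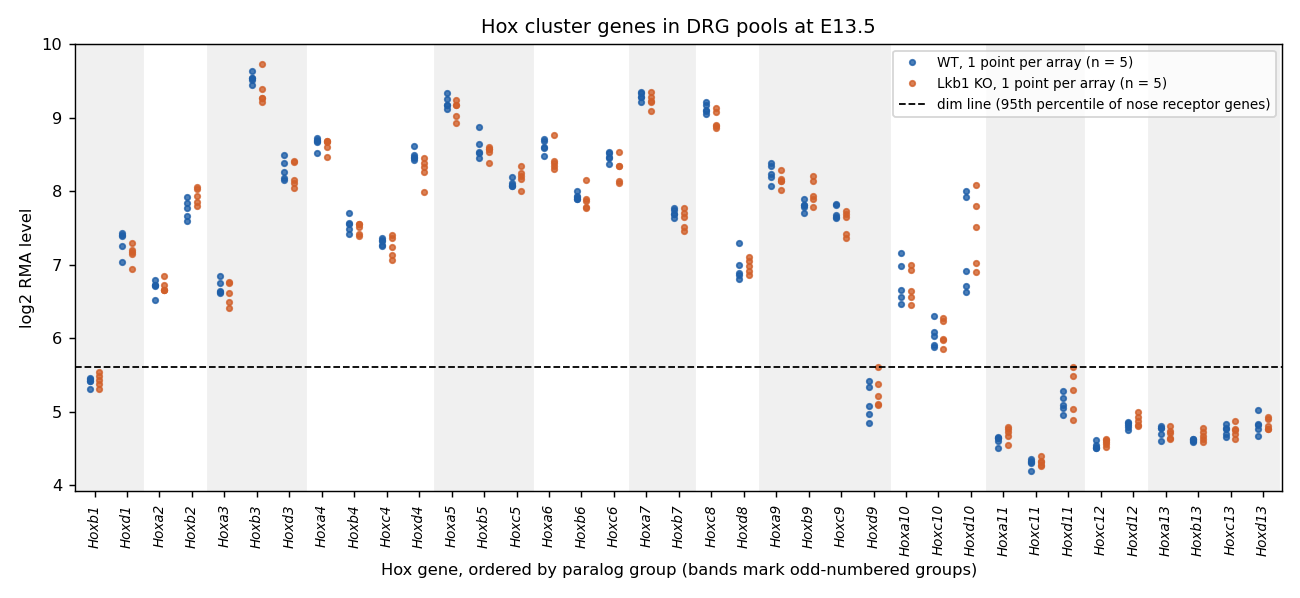
Log2 RMA level (y axis) of each of the 37 Hox genes (x axis, in order of paralog group), with 1 point per array for 5 WT and 5 Lkb1 KO pools. The dashed line is the dim line at 5.61. Genes of groups 2 to 8 lie above it on all arrays, genes of groups 11 to 13 lie below it apart from 1 array of Hoxd11 that is level with it at 5.61, and Hoxd10 has the widest spread, over 1.46 log2 units.

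The boundary between genes above and below the dim line lay between groups 10 and 11 in Hoxa and Hoxc. It lay there in Hoxd too, apart from Hoxd9, while in Hoxb it lay between the neighbours Hoxb9 and Hoxb13. In Hoxa, 8 of 10 genes were above the dim line, the exceptions being Hoxa11 at 4.65 and Hoxa13 at 4.71. In Hoxb, 7 of 9 were above it, the exceptions being Hoxb1 and, at 4.64, Hoxb13. In Hoxc it was 6 of 9, with Hoxc11, Hoxc12 and Hoxc13 below, and in Hoxd it was 5 of 9, with Hoxd9, Hoxd11, Hoxd12 and Hoxd13 below. A stricter line at the 99th percentile of the receptor genes, 6.19, left 25 Hox genes above it, and the median of all genes left 23. Genes known to mark limb-level mesoderm were below the dim line as well. Tbx5, from the forelimb, was at 4.47 ± 0.06 in WT, Tbx4, from the hindlimb, at 5.53 ± 0.06 and Pitx1, also from the hindlimb, at 4.50 ± 0.06 (SD, n = 5 each).

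None of the Hox genes passed the test between genotypes. At an adjusted p under 0.05 from limma, over all genes tested, 0 of the 37 were higher in Lkb1 KO and 0 were lower, against 2.49% and 1.38% of all genes. The smallest adjusted p was 0.178, for Hoxd4. At an unadjusted p under 0.05 from limma, 2 were higher (Hoxb2 and Hoxb9) and 3 were lower (Hoxd4, Hoxc6 and Hoxc8), where 7.51% of all genes were higher and 7.77% lower. An unmoderated analysis of variance also called 0 of the 37. In no Hox gene did all Lkb1 KO arrays lie on one side of all WT arrays, which 5.34% of all genes did. The count of calls stayed at 0 when replicate number was a block, while 3.59% of all genes were called higher and 2.83% lower.

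Differences between genotypes were small in every paralog group. Log2 fold changes of Lkb1 KO over WT ran from -0.21 to 0.23 with a median of -0.03, where the median over all genes was -0.0017. Of the 17 genes of groups 3 to 8, 15 had a fold change below 0, with a median of -0.07. The other 2 were Hoxc5, at 0.09, and Hoxd8, at 0.01. Of the 16 genes of groups 9 to 13, 11 were above 0, with a median of 0.04, but 10 of these 16 were below the dim line. Over all genes, 10157 of 19938 were below 0, and over the 12294 genes with a mean above the dim line, 7235 were. The mean level of groups 3 to 8 was 8.25, 8.31, 8.26, 8.29 and 8.25 in WT replicates 1 to 5 and 8.11, 8.24, 8.12, 8.13 and 8.32 in Lkb1 KO replicates 1 to 5. Lkb1 KO replicates 1, 3 and 4 thus lay below all WT pools, replicate 2 just below, and replicate 5 above all of them.

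**Figure D2:**
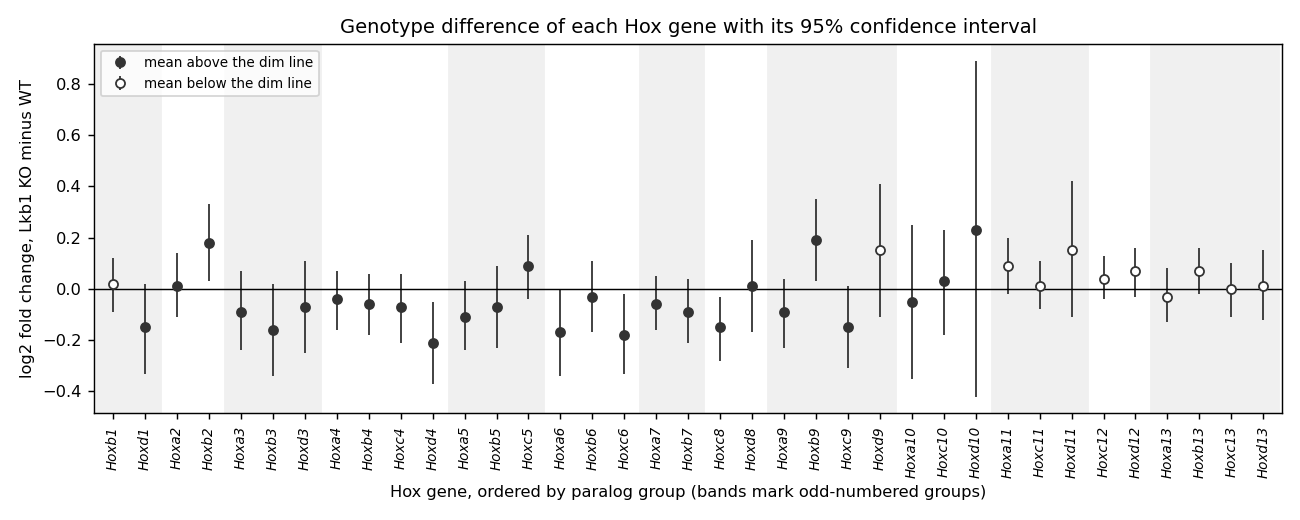
Log2 fold change of Lkb1 KO over WT (y axis) for each Hox gene (x axis, in order of paralog group), with its 95% confidence interval from limma over 5 and 5 arrays. Filled points have a mean above the dim line and open points a mean below it. Most intervals cover 0, and that of Hoxd10, from -0.42 to 0.89, is the widest.

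The largest rise above the dim line was that of Hoxd10, which is known from lumbar motor and sensory levels. It was at 7.92, 8.0, 6.91, 6.63 and 6.71 in WT replicates 1 to 5, and at 7.80, 8.09, 6.90, 7.03 and 7.51 in Lkb1 KO replicates 1 to 5. Both genotypes held high and low pools and overlapped over most of their range. The log2 fold change of 0.23 had a standard error of 0.30 (adjusted p = 0.795 from limma, exact two-sided permutation p = 0.548). With single arrays left out it ran from 0.08 (without WT replicate 4 or Lkb1 KO replicate 2) to 0.42 (without WT replicate 2), and it was 0.41 without WT replicate 1. It took the opposite sign, at -0.06, with Y-linked signal (the mean of 3 genes) as a covariate.

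Hoxb9, known from thoracic levels, was at 7.70, 7.81, 7.78, 7.82 and 7.90 in WT and at 7.93, 8.21, 7.79, 7.89 and 8.14 in Lkb1 KO. Lkb1 KO replicates 1, 2 and 5 were above every WT pool and the others lay among them. Its log2 fold change was 0.19, with a standard error of 0.07 (adjusted p = 0.234 from limma, exact permutation p = 0.0714), and 0.04 with the Y-linked covariate. Hoxb2, known from the hindbrain and the neural crest that leaves it, was at 7.66, 7.77, 7.92, 7.84 and 7.59 in WT and at 7.85, 8.03, 7.94, 7.80 and 8.06 in Lkb1 KO. The groups overlapped between 7.80 and 7.92. Its log2 fold change was 0.18, with a standard error of 0.07 (adjusted p = 0.222 from limma, exact permutation p = 0.0556), and the fold change was 0.09 with that covariate.

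Hoxd4, a gene with an anterior limit at the hindbrain, had the largest fall. It was at 8.49, 8.62, 8.46, 8.47 and 8.42 in WT and at 8.33, 8.45, 8.26, 7.99 and 8.38 in Lkb1 KO. All but 1 of the Lkb1 KO pools, replicate 2, lay below every WT pool. Its log2 fold change was -0.21, with a standard error of 0.07 and a 95% confidence interval from -0.37 to -0.05. The adjusted p from limma was 0.178 and the exact permutation p was 0.0159, where the smallest possible in this design is 0.00794.

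Hoxc6, known from brachial levels, was at 8.46, 8.52, 8.37, 8.47 and 8.54 in WT and at 8.35, 8.35, 8.11, 8.14 and 8.53 in Lkb1 KO. Replicate 5 of Lkb1 KO sat among the WT pools and the other 4 lay below them. The log2 fold change was -0.18, with a standard error of 0.07 (adjusted p = 0.25 from limma, exact permutation p = 0.0714). Hoxa6, from the same paralog group, was at 8.48, 8.71, 8.59, 8.68 and 8.61 in WT and at 8.35, 8.41, 8.38, 8.31 and 8.77 in Lkb1 KO. Here too replicate 5 was the exception, at the top of all 10 pools. Its log2 fold change was -0.17, with a standard error of 0.08 (adjusted p = 0.336 from limma, exact permutation p = 0.111). Hoxd1 was at 7.40, 7.43, 7.26, 7.39 and 7.04 in WT and at 7.30, 7.20, 7.18, 6.94 and 7.14 in Lkb1 KO, with overlapping groups. Its log2 fold change was -0.15, with a standard error of 0.08 (adjusted p = 0.415 from limma, exact permutation p = 0.151).

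A few of these small falls passed the test with Y-linked signal in the fit or with Lkb1 KO replicate 5 left out. Hoxc8, a brachial and upper thoracic gene, was at 9.17, 9.10, 9.05, 9.21 and 9.11 in WT and at 8.91, 9.08, 8.86, 8.89 and 9.13 in Lkb1 KO. The pools without Y-linked signal, Lkb1 KO replicates 2 and 5, were those that lay among the WT pools. With Y-linked signal as a covariate, Hoxc8 and Hoxc6 were called lower, 2 of 37 against 0.953% of all genes. Their log2 fold changes were then -0.26 and -0.29, with adjusted p of 0.013 and 0.0435 from limma. Over all alternatives the adjusted p of Hoxc8 ran from 0.013 to 0.369 and that of Hoxc6 from 0.0435 to 0.542. Without Lkb1 KO replicate 5, 2 others were called lower, against 1.27% of all genes. They were Hoxa6, at -0.25 on the log2 scale (limma, adjusted p = 0.0205, between 0.0205 and 0.634 over the alternatives), and Hoxb3, also at -0.25 (0.0197, between 0.0197 and 0.649). Hoxb3 was at 9.45, 9.64, 9.55, 9.52 and 9.55 in WT and at 9.22, 9.40, 9.27, 9.27 and 9.73 in Lkb1 KO, so that replicate 5 again lay above all WT pools while the other 4 lay below them.

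Cell type markers also differed between the genotypes. Of 9 measured sensory neuron markers, 2 were called lower in Lkb1 KO (Isl1, by -0.25 on the log2 scale, and Prrxl1, by -0.19), or 5 with the replicate block. The mean of that list was between 9.72 and 9.89 in WT and between 9.53 and 9.67 in Lkb1 KO. Of 10 fibroblast and mesenchyme markers, 8 were called higher, or 9 with the block, and the mean of that list was between 8.58 and 8.69 in WT and between 8.90 and 8.97 in Lkb1 KO. The part of these differences in the Hox fold changes was not tested. The 13 spinal cord markers were all below the dim line, including Mnx1 and Chat of motor neurons at 4.32 and 4.90 in WT, although Pax2 and Pax6 were called higher, both at a log2 fold change of 0.24.

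Axial makeup was also put in 1 value per pool. This was the mean level of the group 10 to 13 genes above the dim line (Hoxa10, Hoxc10 and Hoxd10) minus that of the 10 genes of groups 3 to 5, in log2 units. It was -1.20, -1.14, -1.77, -1.86 and -1.87 in WT replicates 1 to 5 and -1.03, -1.18, -1.61, -1.63 and -1.64 in Lkb1 KO replicates 1 to 5. In both genotypes replicates 1 and 2 lay above the other 3, and the 2 genotypes overlapped. The means were -1.57 ± 0.37 in WT and -1.42 ± 0.29 in Lkb1 KO (SD, n = 5 each), a difference of 0.15. Both SDs hold the difference between replicate numbers. Lkb1 KO minus WT was 0.07 for the mean of Hoxa10, Hoxc10 and Hoxd10 and -0.08 for that of groups 3 to 5, so both sides entered the difference. The caudal part rested mainly on Hoxd10, at 0.23 with a standard error of 0.30, while Hoxa10 was at -0.05 and Hoxc10 at 0.03. At number 5 these differences were 0.80 for Hoxd10, -0.02 for Hoxa10 and 0.09 for Hoxc10. Within numbers 1 to 5, Lkb1 KO minus WT was 0.17, -0.04, 0.15, 0.23 and 0.24, above 0 for 4 of 5 numbers and 0.15 ± 0.11 on average (SD, n = 5 pairs). Without Lkb1 KO replicates 2 and 3, the pools that stood apart in Dbh and Actc1, the difference was 0.13 and 0 Hox genes were called.

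Some caudal Hox genes differed by replicate number. WT and Lkb1 KO pools carry the numbers 1 to 5, and the labels do not say what a number stands for. Across genes, deviations from the genotype mean correlated at 0.21 to 0.479 between pools of the same number and at -0.482 to 0.306 between pools of different numbers. After the values had been seen, the replicate number was tested as a factor beside genotype, with limma's moderated F test over all genes. It called 3 of the 37 Hox genes, Hoxa10, Hoxd10 and Hoxd9, where 1.38% of all genes were called. With 1 array per number and genotype, an interaction between them could not be fitted.

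Hoxd10 was the gene with the widest range, 1.46 log2 units over the 10 arrays. Its 4 arrays numbered 1 and 2 were between 7.80 and 8.09, and the other 6 between 6.63 and 7.51. The means per number were 7.86, 8.05, 6.90, 6.83 and 7.11 for numbers 1 to 5. Within a number, Lkb1 KO minus WT was -0.12, 0.10, -0.01, 0.40 and 0.80, so that the genotypes lay close together for the first 3 numbers and apart for number 5. The moderated F was 20.0 (adjusted p = 0.0214 from limma).

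Hoxa10, the paralog of Hoxd10 in another cluster and on another chromosome, had the highest F of the 37, at 26.9 (adjusted p = 0.0114 from limma). It was at 6.98, 7.16, 6.56, 6.65 and 6.47 in WT and at 6.99, 6.93, 6.56, 6.64 and 6.45 in Lkb1 KO. Same-numbered pools differed by at most 0.02 except for number 2, where Lkb1 KO was lower by 0.23, and the means per number covered 0.58 log2 units. Its genotype difference was -0.05, with a standard error of 0.14.

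Hoxd9, which lies next to Hoxd10 in its cluster, was also highest at numbers 1 and 2, although its level was below the dim line. It was at 5.41, 5.34, 4.97, 5.07 and 4.84 in WT and at 5.37, 5.61, 5.10, 5.21 and 5.09 in Lkb1 KO, with the arrays numbered 1 and 2 above the others in both genotypes. The moderated F was 16.4 (adjusted p = 0.0304 from limma). Differences at such low signal are compressed by the background of the probes.

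**Figure D3:**
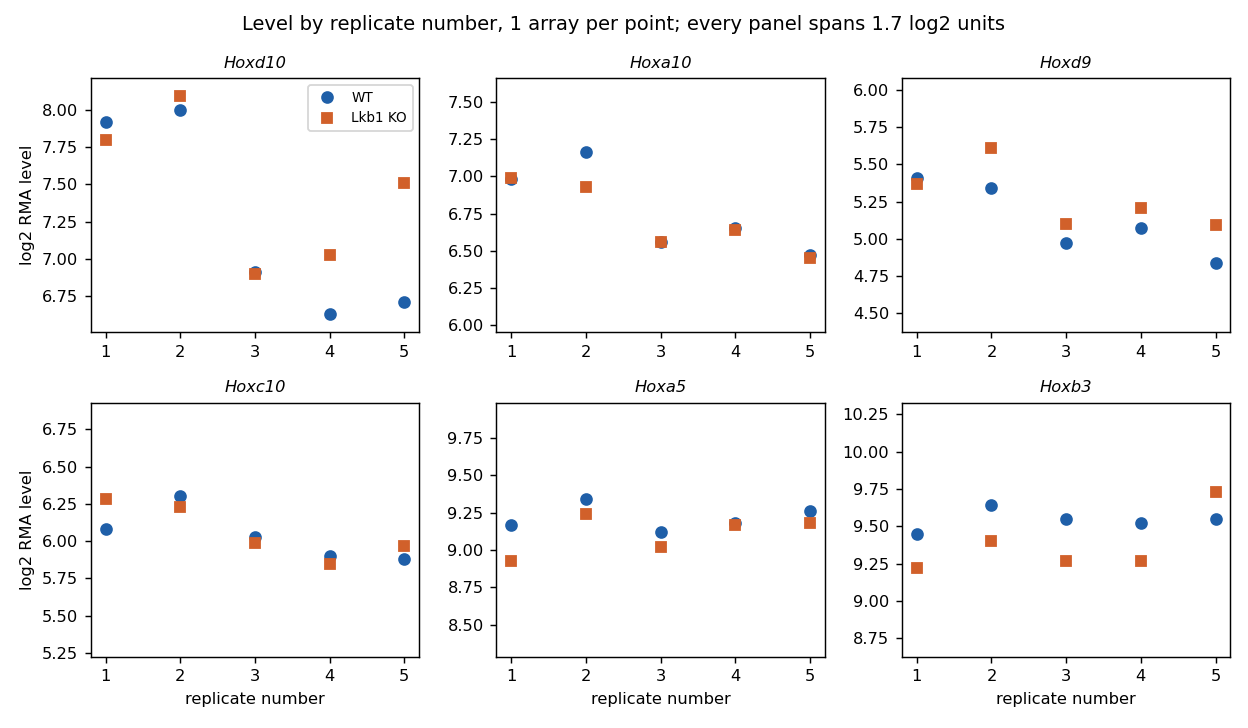
Log2 RMA level (y axis) against replicate number (x axis) for Hoxd10, Hoxa10, Hoxd9 and Hoxc10 and, for comparison, Hoxa5 and Hoxb3, with 1 point per array (circles WT, squares Lkb1 KO). Hoxd10, Hoxa10 and Hoxd9 are higher at numbers 1 and 2 in both genotypes, by up to 1.21 log2 units between number means for Hoxd10, while the number means of Hoxa5 and Hoxb3 cover 0.24 and 0.31.

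Fewer genes were called for replicate number when an array numbered 1 or 2 was left out, among the Hox genes and over all genes. Without WT replicate 1, 0 of the 37 were called and 0.346% of all genes, and without Lkb1 KO replicate 1 it was 0 and 0.15%. Without WT replicate 2 only Hoxa10 of the 37 was called, and 0.592% of all genes. Without Lkb1 KO replicate 2 it was again only Hoxa10, and 0.572% of all genes. When single arrays were left out, the adjusted p of Hoxa10 ran from 0.0157 to 0.0718, that of Hoxd10 from 0.00684 to 0.0798 and that of Hoxd9 from 0.0372 to 0.117. With array medians aligned, with cyclic loess, with probe sets averaged per gene or without the dimmest genes, the same 3 genes were called. With the Y-linked covariate Hoxd9 was no longer called, at 0.0509.

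In the Hoxa, Hoxc and Hoxd clusters the F for replicate number was highest at group 10, the last group with means above the dim line. All 9 genes of groups 11 to 13 lay below that line, where differences are compressed. Their lower F therefore does not show that their transcripts differed less. In Hoxa the F was 5.93 for Hoxa9, 26.9 for Hoxa10 and 3.18 for Hoxa11. In Hoxc it was 3.75 for Hoxc9, 9.68 for Hoxc10 (adjusted p = 0.086) and 1.27 for Hoxc11. In Hoxd it was 6.75 for Hoxd8, 16.4 for Hoxd9, 20.0 for Hoxd10, 7.0 for Hoxd11 (adjusted p = 0.148) and 0.97 for Hoxd12. Hoxb, which has no group 10 gene, had its highest value, 3.11, at Hoxb9. The median F was 2.14 over the 37 genes and 1.37 over all genes tested. Among genes with a mean above the dim line it was 2.73 over the 26 Hox genes and 1.63 over all 12294.

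**Figure D4:**
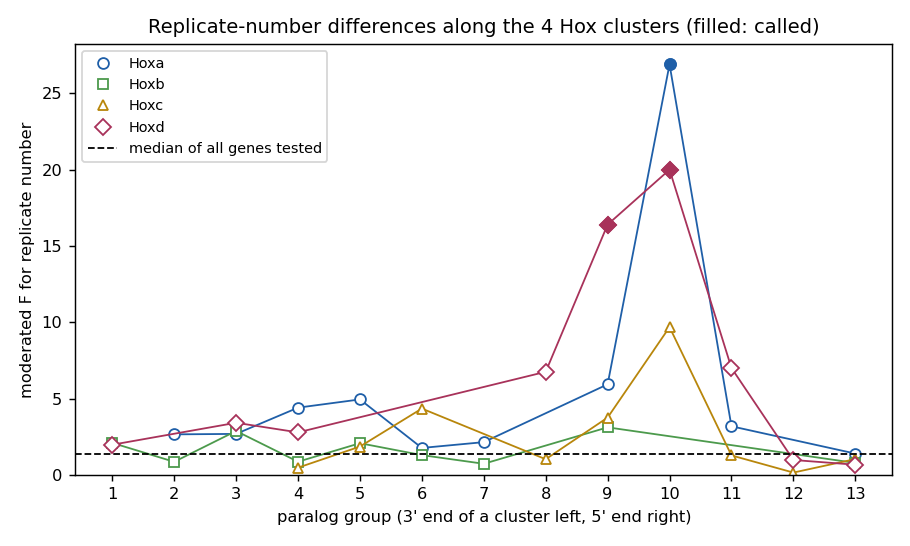
Moderated F for replicate number (y axis) against paralog group (x axis) for the Hoxa, Hoxb, Hoxc and Hoxd genes, with genotype in the fit. Filled symbols are the 3 genes with an adjusted p under 0.05, and the dashed line is the median of all genes tested, 1.37. Hoxa, Hoxc and Hoxd each have their highest value at group 10, and all genes of groups 11 to 13 had means below the dim line.

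Hoxc10 and Hoxd11 gave the same picture without passing the test. Hoxc10, a lumbar gene, was at 6.08, 6.30, 6.03, 5.90 and 5.88 in WT and at 6.28, 6.23, 5.99, 5.85 and 5.97 in Lkb1 KO, so that all 4 arrays numbered 1 and 2 were above the other 6. Hoxd11 was at 5.28, 5.19, 4.95, 5.09 and 5.05 in WT and at 5.49, 5.61, 4.88, 5.03 and 5.30 in Lkb1 KO. There, replicate 5 of Lkb1 KO lay among the arrays numbered 1 and 2, as it came nearest to them in Hoxd10. Of the 7 genes of groups 9 and 10, 6 had an unadjusted p under 0.05 for replicate number from limma, all but Hoxb9. So did 4 of the 19 genes of groups 2 to 8, 1 of the 9 genes of groups 11 to 13 and 14.7% of all genes. Among all 12294 genes with a mean above the dim line, 2457 did. An F test gives no direction, and not all of these Hox genes were highest at numbers 1 and 2. The means of Hoxa9 were 8.19, 8.28, 8.05, 8.16 and 8.32 for numbers 1 to 5, highest at number 5.

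Further towards the 3' end, Hoxd8 was also highest at numbers 1 and 2 without passing the test (F 6.75, adjusted p = 0.157 from limma). It was at 7.30, 6.99, 6.89, 6.81 and 6.86 in WT and at 7.10, 7.05, 6.92, 6.86 and 6.98 in Lkb1 KO, with all 4 arrays numbered 1 and 2 above the other 6. The number means of Hoxd1 were also highest for 1 and 2, at 7.35 and 7.32 against 7.09 to 7.22, although its arrays overlapped (F 1.97, adjusted p = 0.525). The mean of the 10 genes of groups 3 to 5 was 8.19, 8.29, 8.27, 8.26 and 8.23 in WT replicates 1 to 5 and 8.06, 8.26, 8.10, 8.14 and 8.28 in Lkb1 KO. There, number 1 was the lowest in both genotypes, so numbers 1 and 2 were not the highest pair. The mean of the 3 group 10 genes was 6.99, 7.15, 6.5, 6.39 and 6.35 in WT and 7.02, 7.08, 6.48, 6.51 and 6.65 in Lkb1 KO. The mean of groups 11 to 13 stayed between 4.65 and 4.81 on all arrays.

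**Figure D5:**
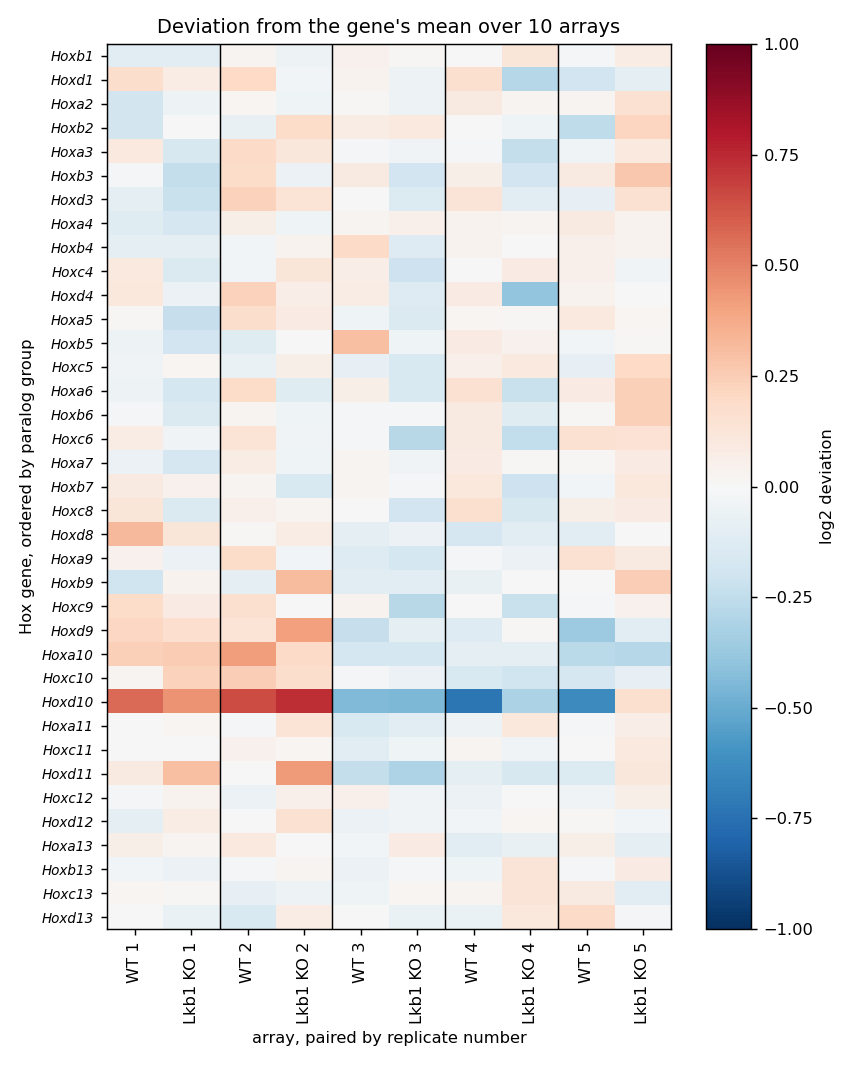
Deviation of each array (x axis, paired by replicate number) from the gene's mean over the 10 arrays, in log2 units (colour scale from -1 to 1), for the 37 Hox genes (y axis, in order of paralog group). The strongest colours are those of Hoxd10, red in numbers 1 and 2 and blue in numbers 3 and 4 and in WT replicate 5. Hoxa10, Hoxd9 and Hoxc10 follow it. In groups 3 to 8 any contrast between WT and Lkb1 KO is weak, with a median log2 fold change of -0.07.

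Among the cell type markers, 1 gene was called for replicate number, Avil, which encodes advillin of sensory neurons (adjusted p = 0.0252 from limma). It was at 9.86, 9.47, 9.46, 9.41 and 9.27 in WT and at 9.65, 9.22, 9.35, 8.94 and 9.02 in Lkb1 KO, highest at number 1 but not raised at number 2. None of the 13 spinal cord markers, 10 fibroblast and mesenchyme markers and 3 limb-level markers was called for it. Their part in the Hox differences was not tested.

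The start sites of the 3 genes called for replicate number are shown because these genes changed together across the arrays. Each window holds 300 bases of RefSeq's GRCm38.p6 around the annotated start, most of them upstream of it, 5' to 3' on the gene's own strand. Hoxd10 and Hoxd9 lie on the plus strand of chromosome 2, at chr2:74691641-74691940 and chr2:74697513-74697812. Hoxa10 lies on the minus strand of chromosome 6, at chr6:52240805-52241104, which is the upstream one of its 2 annotated starts. Capitals mark matches to 4 motifs searched on both strands, namely TTTATNG (bound by posterior Hox proteins and by Cdx), TGATTNAT (bound by Hox with Pbx), AGGTCA (the half-site of retinoic acid receptors) and TATAAA (the TATA box).
Hoxd10: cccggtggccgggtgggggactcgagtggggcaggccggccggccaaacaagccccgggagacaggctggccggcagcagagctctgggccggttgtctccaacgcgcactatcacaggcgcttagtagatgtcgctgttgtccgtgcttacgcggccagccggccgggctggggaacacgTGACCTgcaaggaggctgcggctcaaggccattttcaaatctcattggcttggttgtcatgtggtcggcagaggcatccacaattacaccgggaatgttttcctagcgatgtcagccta
Hoxa10: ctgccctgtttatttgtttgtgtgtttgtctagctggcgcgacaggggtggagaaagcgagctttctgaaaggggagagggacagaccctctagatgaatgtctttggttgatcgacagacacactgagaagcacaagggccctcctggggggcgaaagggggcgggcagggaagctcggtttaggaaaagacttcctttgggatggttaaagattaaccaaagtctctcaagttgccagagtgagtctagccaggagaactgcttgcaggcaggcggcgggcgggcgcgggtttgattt
Hoxd9: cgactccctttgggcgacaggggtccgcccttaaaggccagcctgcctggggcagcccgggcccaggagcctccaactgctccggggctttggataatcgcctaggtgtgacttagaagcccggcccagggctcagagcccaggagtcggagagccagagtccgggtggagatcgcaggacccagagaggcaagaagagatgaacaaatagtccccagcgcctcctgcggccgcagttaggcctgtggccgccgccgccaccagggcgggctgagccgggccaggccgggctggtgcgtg
The window of Hoxd10 held 1 match, to AGGTCA on the minus strand, and those of Hoxa10 and Hoxd9 held none. Windows were matched for 21 of the 37 Hox genes, with 23 starts. AGGTCA was in 7 of these 23 windows (Hoxa5, Hoxb4, Hoxc4, Hoxd3, Hoxd4, Hoxd8 and Hoxd10), against 16.3% of 32851 windows of all genes. TTTATNG was in 1 of them (Hoxd4) against 10.9%, TGATTNAT in 2 (Hoxa2 and Hoxd11) against 3.22%, and TATAAA in 3 (Hoxa10 at its other start, Hoxd4 and Hoxd13) against 13.6%. A match of letters is a description and not a binding site.

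Hox proteins bind DNA together with TALE homeodomain cofactors of the Pbx, Meis and Pknox families. All 8 measured cofactor genes were above the dim line, and none was called by genotype, with log2 fold changes from -0.21 to 0.14. With the replicate block Pknox2 was called lower, at -0.21 on the log2 scale (limma, adjusted p = 0.0307, against 0.117 without the block). Meis2, at 10.32 ± 0.05 in WT and 10.18 ± 0.02 in Lkb1 KO (SD, n = 5 each), had an adjusted p of 0.063.

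Retinoic acid, Gdf11 and Cdx proteins set Hox expression along the axis in the early embryo. Of the 11 genes of this list, 7 were above the dim line and 0 were called by genotype. With the replicate block 2 were called higher. Rarb, a retinoic acid receptor gene that retinoic acid itself induces, was at 8.27, 8.13, 8.14, 8.03 and 7.97 in WT and at 8.56, 8.34, 8.31, 8.32 and 8.26 in Lkb1 KO. Every Lkb1 KO pool was above the WT pool of its number, and only Lkb1 KO replicate 5 fell below any WT pool. It differed by 0.25 (limma, adjusted p = 0.0537, and 0.00387 with the block). Aldh1a2, which encodes the enzyme that makes retinoic acid in the embryo, was at 8.41, 8.43, 8.31, 8.54 and 8.64 in WT and at 8.75, 8.60, 8.58, 8.68 and 8.74 in Lkb1 KO. Each Lkb1 KO pool was again above the WT pool of its number. It differed by 0.20 (limma, adjusted p = 0.0988, and 0.0254 with the block). The posterior inputs Cdx2 and Cdx4 and the retinoic acid-degrading enzyme gene Cyp26a1 were below the dim line, at 4.76, 4.54 and 4.35 in WT. Cdx1 was level with the line, at 5.61 in WT and 5.63 in Lkb1 KO, and counts among the 7 above it.

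Polycomb proteins keep Hox genes silent outside their domains, and trithorax proteins keep them active within. Of 18 measured Polycomb genes, 17 were above the dim line and 0 were called by genotype or for replicate number, with log2 fold changes from -0.14 for Pcgf2 to 0.13 for Ezh2. All 9 trithorax genes were above it and 0 were called, with log2 fold changes from -0.04 to 0.12. Of 10 measured RNAs transcribed from within the clusters, Haglr of the Hoxd cluster was the only 1 above the dim line, at 5.83 ± 0.16 in WT and 5.66 ± 0.12 in Lkb1 KO (SD, n = 5 each), and 0 were called. The array does not resolve mature microRNAs, and its means for Mir10a, Mir10b and the Mir196 genes lay below the line. Single arrays lay above it, with Mir10a up to 5.95 and Mir196a-1 up to 5.68, both in WT. Among 13 measured genes that flank the clusters, 0 were called by genotype. Smug1, which flanks Hoxc, was at 5.78 ± 0.03 in WT and 5.63 ± 0.05 in Lkb1 KO (SD, n = 5 each), where limma gave an adjusted p of 0.0501, and 0.0445 with the block. In these 6 lists no gene was called for replicate number.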

How the data were processed

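DRGs of 5 Lkb1 KO and 5 WT pools were profiled on one-colour Affymetrix Mouse Gene 1.0 ST arrays from 250 ng of total RNA each. The authors deposited log2 values of 35556 probe sets, and the processing notes name RMA (background correction, quantile normalization and summary per probe set) and Partek 6.6. No genome build is named for them. Under GEO's platform annotation 21789 probe sets named a single gene, 1621 named several, and 12146 have no entry here. For the 999 genes with more than 1 such probe set, the brightest on average was kept. Genotypes were compared over all 19938 genes by lmFit and two-sided eBayes tests of limma 3.58.1 (R 4.3.3) with Benjamini-Hochberg adjustment, at an adjusted p under 0.05 and with no filter. Replicates are called biological in the labels. The fits were tested on simulated data. Sequences came from RefSeq. Tables were handled in Python 3.11.15 with pandas 2.3.3.

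The members and all lists were chosen with earlier results of these data known. Values are given per array for the 3 largest rises and falls above the dim line and for Hoxd1. The test of replicate number, the genes it called and Hoxb3, Hoxc8, Hoxd8, Hoxc10, Hoxd11, Avil, Rarb and Aldh1a2 were added after their values were seen. Same-numbered arrays deviated together (5 correlations from 0.21 to 0.479), and the numbers were treated as pairs on that basis, which is read from the values. The number of arrays limits the precision. Alternatives were array medians aligned, cyclic loess, an analysis of variance per gene, an intensity trend with a robust prior, exclusion of the dimmest 30% of genes, averaging of probe sets per gene, a replicate block, a covariate of 3 Y-linked genes and leaving out each array.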

Additional observations from a re-analysis of the deposited data

Results flagged for a closer look

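In 76 groups of 5 arrays (each Hox gene and the caudal minus rostral value, by genotype), 2 had a sample far from the others by Dixon's criterion, where chance gives about 5% of groups. Hoxa2 was at 6.52 in WT replicate 1, against 6.71 for the next lowest WT array. Hoxa6 was at 8.77 in Lkb1 KO replicate 5, against 8.41 for the next highest Lkb1 KO array.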

How the results depend on the processing

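The count of Hox genes called higher was 0 in all settings run, and that of genes called lower was 0 in all but these: it was 2 with the Y-linked mean as a covariate, and it ran from 0 to 2 when single arrays were left out (2 without Lkb1 KO replicate 5). With the replicate block both counts were 0. The median log2 fold change of -0.031 ran from -0.064 to -0.018 over all settings. The caudal minus rostral difference of 0.15 was 0.11 with the Y-linked covariate and 0.08 with groups 9 to 13 against 1 to 5. It was 0.05 to 0.26 with single arrays left out. With the block it was 0.15, which a block cannot change when each number holds 1 array per genotype. Each move was less than 0.33, the SD between pools of 1 genotype, which holds the difference between replicate numbers. Because 0.33 is larger than the difference itself, that comparison could not show a loss of the difference. The SD of the differences within numbers was 0.11. The count called for replicate number ran from 0 to 3 when single arrays were left out. Single fold changes that took the opposite sign were those of Hoxd10 (-0.06 with the Y-linked covariate) and Hoxa10 (0.0038, 0.05 and 0.02 without WT replicate 1, WT replicate 2 or Lkb1 KO replicate 5, in a range from -0.12 to 0.05 over all single arrays left out). The causes were not tested. Of 162 alternatives for 9 named genes, 156 kept direction and side of the threshold, 4 took the opposite sign and 2 passed the threshold, namely Hoxc6 with the Y-linked covariate and Hoxa6 without Lkb1 KO replicate 5. Some of these alternatives could not change a fold change, so only the side of the threshold could move there. They were the analysis of variance, the intensity trend, the exclusion of dim genes, the replicate block and the averaging of probe sets. Each Hox gene had only 1 probe set to average. Signals near the dim line limit what can be said of groups 11 to 13 and Hoxd9.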

Other observations

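The probe set shared by Hoxb7 and Hoxb8, which was assigned to neither gene, was at 7.64, 7.68, 7.73, 7.83 and 7.72 in WT and at 7.63, 7.86, 7.62, 7.94 and 7.86 in Lkb1 KO on the log2 scale. The groups overlapped, with a difference of 0.06 (exact two-sided permutation p = 0.421, n = 5 each).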
